A study of Saccharomyces cerevisiae with 12 samples.

Results

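SUMO peaks in budding yeast were compared between 2 lists labelled WT heat shock and 2 lists labelled WT untreated. All 2153 nuclear peaks of these 4 lists were used, with no threshold beyond the one already applied in the lists, out of 3462 nuclear peaks in the 6 lists of the series. The immunoprecipitations had been done with an antibody to Smt3, the yeast SUMO protein, on chromatin of W303a, an unmodified laboratory strain that is called WT here. Untreated cultures grew at 30 °C, and heat shock was a shift to 37 °C for 12 min. The third group of the series, 2 lists labelled ubc9-6 untreated (a mutant of the SUMO-conjugating enzyme Ubc9), served only as a reference. The labels name no allele or agent that the 2 groups compared share.

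SUMO is a small protein that the cell attaches covalently to lysines of other proteins, and SUMO ChIP-seq maps where proteins carrying it sit on DNA. In yeast such proteins are found at tRNA genes, which RNA polymerase III transcribes with TFIIIC bound to the A and B boxes inside the gene and TFIIIB bound just upstream of its start. They are also found at promoters of ribosomal protein genes (RPGs), where the activator Rap1 binds. Heat shock is known to lower transcription of ribosomal protein genes for a time and to raise that of chaperone genes.

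The sequences that carry the comparison are shown first, from the R64 RefSeq genome (the assembly named sacCer3). Each of the following 5 lines runs 5′ to 3′ on the gene's strand from 60 bases upstream of a tRNA gene through its first 40 bases, so the gene starts at base 61. Capitals mark the stretch that holds the summits (positions of highest enrichment) of all 4 lists. SUF4 (tRNA-Gly, chrVII:779556-779655) had the largest rise, YNCJ0008W (tRNA-Arg, chrX:233879-233978) the highest fold in the lists labelled heat shock and YNCE0012W (tRNA-Glu, chrV:177039-177138) the largest fall of a tRNA region. YNCD0024C (tRNA-Ser, chrIV:1150902-1151001, minus strand) and YNCP0009W (tRNA-Gly, chrXVI:572209-572308) are the 2 most enriched genes at which the summit lay inside the gene in both WT lists and upstream of it in both lists labelled heat shock.
SUF4: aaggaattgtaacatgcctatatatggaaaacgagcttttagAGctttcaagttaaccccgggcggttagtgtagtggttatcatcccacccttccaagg
YNCJ0008W: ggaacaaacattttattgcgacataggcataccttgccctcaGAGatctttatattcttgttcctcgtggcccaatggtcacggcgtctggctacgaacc
YNCE0012W: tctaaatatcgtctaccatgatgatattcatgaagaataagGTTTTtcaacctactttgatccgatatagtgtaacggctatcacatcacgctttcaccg
YNCD0024C: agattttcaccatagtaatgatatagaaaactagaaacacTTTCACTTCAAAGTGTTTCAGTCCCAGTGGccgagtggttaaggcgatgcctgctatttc
YNCP0009W: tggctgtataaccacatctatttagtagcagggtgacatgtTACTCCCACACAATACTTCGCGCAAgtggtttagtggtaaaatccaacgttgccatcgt
At SUF4, YNCJ0008W and YNCE0012W the 4 summits fell within 2, 3 and 5 bases. At YNCD0024C the WT summits lay at bases +5 and +9 from the gene start and those labelled heat shock at -19 and -20. At YNCP0009W they lay at +2 and +5 against -17 and -19.

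The next 9 lines are 101-base windows centred on the WT summit at RPG promoters, on the gene's strand, with each match to ACCCNNACA in capitals. This is the core of the site that Rap1 binds, and it was searched on both strands. The first 5 are the RPG regions that still had a peak in both lists labelled heat shock and no tRNA gene within 1000 bp: RPL22B (chrVI:65124-65224, minus strand), RPL23B (chrV:396342-396442), RPL2A (chrVI:221862-221962, minus strand), RPS11B (chrII:332482-332582) and RPL27B (chrIV:1401394-1401494). The last 4 are the RPG regions with the highest WT fold among those without a peak in both of these lists (3 of them had one in replicate 2 alone): RPL2B (chrIX:316329-316429), RPS19B (chrXIV:63268-63368, minus strand), RPS24A (chrV:305943-306043) and RPL35A (chrIV:117327-117427).
RPL22B: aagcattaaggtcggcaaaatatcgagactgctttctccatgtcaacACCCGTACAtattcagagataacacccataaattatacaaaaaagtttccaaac
RPL23B: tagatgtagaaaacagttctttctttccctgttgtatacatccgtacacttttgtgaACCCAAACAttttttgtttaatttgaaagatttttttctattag
RPL2A: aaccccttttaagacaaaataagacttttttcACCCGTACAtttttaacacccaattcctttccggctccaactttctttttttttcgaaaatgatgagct
RPS11B: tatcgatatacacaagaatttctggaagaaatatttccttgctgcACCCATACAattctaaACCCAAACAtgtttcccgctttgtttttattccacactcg
RPL27B: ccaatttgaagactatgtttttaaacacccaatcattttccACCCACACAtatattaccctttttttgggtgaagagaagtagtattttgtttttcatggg
RPL2B: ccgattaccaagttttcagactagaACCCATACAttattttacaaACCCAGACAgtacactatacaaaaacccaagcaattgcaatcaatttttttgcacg
RPS19B: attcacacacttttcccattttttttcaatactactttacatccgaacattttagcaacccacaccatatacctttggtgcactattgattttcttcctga
RPS24A: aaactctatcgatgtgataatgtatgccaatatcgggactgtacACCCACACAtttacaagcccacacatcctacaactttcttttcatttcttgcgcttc
RPL35A: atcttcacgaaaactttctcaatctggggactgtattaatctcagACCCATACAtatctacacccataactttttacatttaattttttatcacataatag
The core was present in 5 of the 5 kept windows and in 52 of 116 windows at RPG regions that were lost (44.8%). It was present in 6 of 138 windows at other promoters (4.35%), in 1 of 264 at tRNA regions (0.379%) and in 0.721% of all 119509 windows of that length in the nuclear genome. These are counts of letters and not of bound sites. The string is strict, and variants of the site go uncounted. The paper's motif search found a match to the Rap1 consensus at nearly all RPG SUMO peaks. Windows without the string therefore need not lack a Rap1 site. By WT fold the 5 kept windows ranked 2, 4, 8, 12 and 23 among all WT regions, so they were also among the strongest.

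The names of the deposited lists cast doubt on the labels of 2 groups, heat shock and ubc9-6. In those names the lists labelled WT untreated carry the letters w and n, the lists labelled heat shock carry m and n, and the lists labelled ubc9-6 carry w and h. The lists labelled heat shock thus share with WT untreated the letter that would stand for treatment and differ in the one that would stand for strain, and the lists labelled ubc9-6 do the reverse. If the letters stand for strain and treatment, the labels of these 2 groups are exchanged. The groups are therefore called "labelled heat shock" and "labelled ubc9-6" throughout, and every direction given below belongs to the lists so labelled. Among 40 genes that heat shock is known to induce or that control that response, neither list labelled heat shock had a peak at any. The lists labelled ubc9-6 had a peak at 15 and 18 of them, and the WT untreated lists at 9 and 4. Peaks at promoters outside the RPG class were few in the lists labelled heat shock altogether, 5 and 9, against 92 and 134 in those labelled ubc9-6 and 172 and 203 in WT, and the 0 of 40 is to be read against these numbers. RPG peaks numbered 118 and 120 in the lists labelled ubc9-6, close to the 124 and 123 of WT, against 5 and 22 in those labelled heat shock. HSP104, the disaggregase, had fold 1.96 and 2.28 in the lists labelled ubc9-6. HSP26, a small heat-shock chaperone, had 2.26 and 3.79 in the same lists, and neither gene had a peak in the other 4. Other genes of the list did not follow this pattern. SSA2, an Hsp70 gene, had 2.51 and 1.89 in WT and no peak in the lists labelled ubc9-6, and SIS1, an Hsp40 gene, had 1.61 and 1.39 in WT against 1.78 and 1.97. These genes were picked after their values were seen. The paper that reported these data states that ubc9-6 nearly removed SUMO peaks at non-RPG promoters. It adds that some peaks, those at tRNA genes above all, were stable in that strain. The lists labelled heat shock, with 5 and 9 peaks at such promoters, come nearer to this description than those labelled ubc9-6, with 92 and 134. The labels were not checked further.

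Peaks were far fewer in the lists labelled heat shock, and those left were almost all at tRNA genes. The WT lists held 714 and 842 nuclear peaks, and the lists labelled heat shock 278 and 319, a ratio of 0.384 between the means (778 ± 90.5 against 298.5 ± 29.0, SD, n = 2). The 2 groups did not overlap. With 2 lists a side the exact permutation test (2-sided) cannot go below p = 0.33, which is the value obtained for this and for each of the other 2 values compared over lists. Summits within 250 bp of a tRNA gene made up 37.1% and 31.4% of the WT peaks and 89.2% and 81.5% of those labelled heat shock. In numbers these were 265 and 264 tRNA peaks against 248 and 260. Peaks at RPG promoters (the 800 bp before and 100 bp after a start codon) numbered 124 and 123 against 5 and 22. The number of reads per library is not in the lists. The fragment count at each summit could be recovered from the fold and the p-value and came out within 0.05 of a whole number for 97.5% to 99.9% of peaks. The low end of the recovered background (5th percentile) was 117 and 124 fragments in the WT lists and 114 and 115 in those labelled heat shock. Library 1 labelled heat shock also held 24 peaks on the mitochondrial genome, which no other list had, and these were left out.

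**Figure D1:**
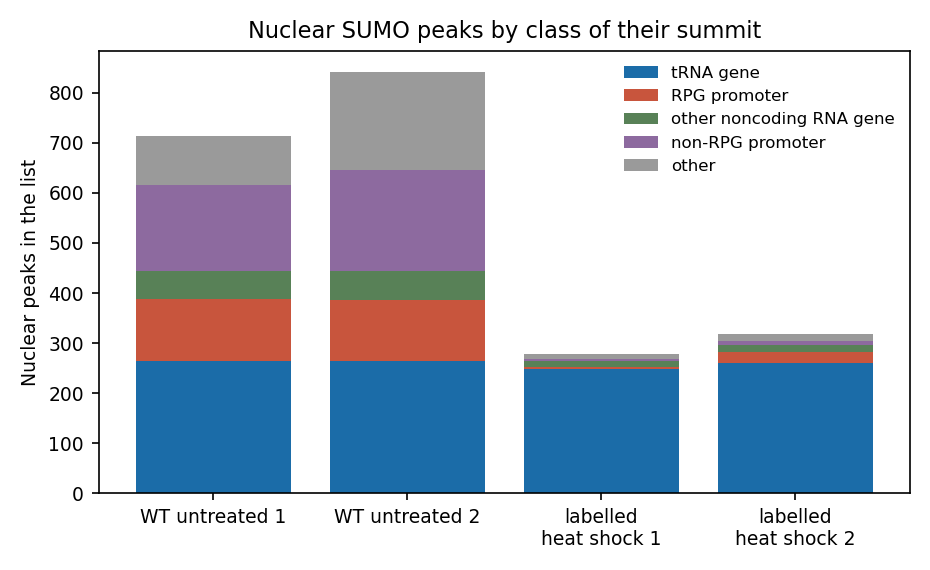
Number of nuclear peaks (y axis) in each of the 4 lists (x axis), stacked by the class of the summit. The tRNA part of the bars is 265 and 264 peaks in the WT lists against 248 and 260 in those labelled heat shock, while the RPG part goes from 124 and 123 to 5 and 22.

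Peaks of the 2 replicates that overlapped were joined into 661 WT regions and 274 regions labelled heat shock. Of the WT regions, 262 (39.6%) had a region labelled heat shock that overlapped them by at least 1 bp, and 399 (60.4%) had none. This share was far from even over the classes. At tRNA genes 247 of 264 regions were kept (93.6%), at RPG promoters 6 of 122 (4.92%) and at promoters of other protein-coding genes 1 of 138 (0.725%). At noncoding RNA genes other than tRNA genes 4 of 51 were kept (7.84%), and at all other places 4 of 86 (4.65%). In pairs of single lists the share of WT peaks with a partner ran from 31.6% to 42.3% over all classes, against 78.6% and 95.9% between the 2 WT lists. For tRNA peaks it ran from 93.6% to 98.1%. For RPG peaks it depended on the list labelled heat shock, with 4.03% and 4.88% against replicate 1 and 17.7% and 18.7% against replicate 2.

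RPG regions were lost far more often than tRNA regions of like WT fold. Fold enrichment, the ratio of fragments at a summit to the local background of the input, was as high at RPG promoters as at tRNA genes in the WT lists, with medians of 10.1 and 20.04 at RPG peaks and of 8.17 and 11.3 at tRNA peaks. Among WT regions with a mean fold between 10 and 15, 0 of 29 RPG regions and 94 of 94 tRNA regions were kept. Between 15 and 20 these numbers were 0 of 35 and 18 of 18. Above 20 they were 6 of 27 and 7 of 7. The 6 kept RPG regions had median WT folds of 21.1 and 43.2, against 9.88 and 19.4 at the lost ones. They were thus among the stronger of their class. Between 5 and 10, where 9 non-RPG promoters also lay, 0 of 21 RPG regions, 0 of 9 non-RPG promoters and 127 of 138 tRNA regions were kept.

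**Figure D2:**
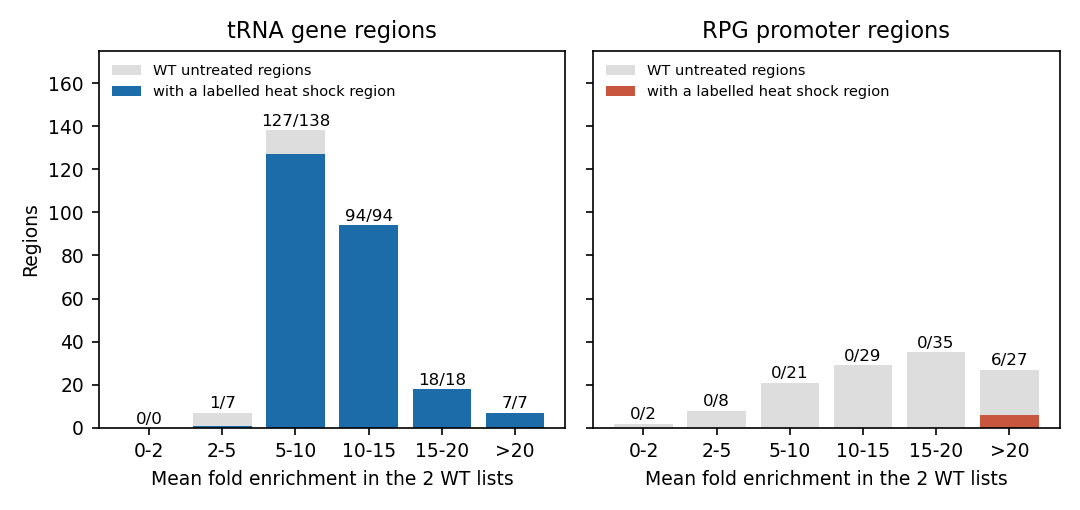
Number of WT regions (grey) and of those with an overlapping region labelled heat shock (colour), by mean WT fold, for tRNA genes (left) and RPG promoters (right). At a mean fold of 10 to 15, 94 of 94 tRNA regions and 0 of 29 RPG regions were kept.

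The most enriched WT regions show the same contrast. Of the 50 WT regions with the highest mean fold, 37 were RPG and 11 tRNA regions, whereas the 50 highest regions labelled heat shock were all at tRNA genes. The strongest WT region was at RPL2B, a gene of the large ribosomal subunit, with fold 29.5 and 55.5 in the WT lists. It had no peak in replicate 1 labelled heat shock and one of fold 1.70 in replicate 2. The region at RPS19B, a small-subunit gene, had 22.3 and 44.0 in WT and only 1.83 in replicate 2 labelled heat shock. RPS24A had 22.5 and 43.6 against 2.08 in replicate 2. RPS0B had 24.2 and 40.6 against 2.72 in replicate 2. RPL35A, with 22.0 and 43.5 in WT, and RPS1B, with 20.9 and 40.4, had a peak in neither. The other 4 of the 10 most enriched RPG regions (RPL22B, RPL23B, RPL2A and RPS11B) had a peak in both.

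Of the 6 RPG regions that were kept, 5 had a far lower fold in both lists labelled heat shock. At RPL22B the fold was 25.5 and 51.6 in WT against 2.47 and 3.45 in those labelled heat shock. At RPL23B it was 25.4 and 47.7 against 2.17 and 3.14. At RPL2A it was 22.3 and 43.2 against 2.09 and 2.43. In each the groups lay far apart. RPS11B had 19.8 and 43.2 against 2.23 and 3.14. RPL27B had 15.8 and 32.1 against 1.67 and 2.40. The sixth, at RPL26A (chrXII:818295-819438), had 14.5 and 26.1 against 11.5 and 17.3. That region also spans the tRNA gene TRR4 (tRNA-Arg, chrXII:818609-818680), and the summits labelled heat shock lay 13 and 12 bases upstream of TRR4. A further 17 of the 116 lost RPG regions had a peak in replicate 2 labelled heat shock alone, at fold 1.47 to 2.72 (median 1.83), and their WT medians were 15.9 and 31.4. The other 99 had a peak in neither, with WT medians of 8.65 and 17.0. Without replicate 1 labelled heat shock the share of RPG regions kept was thus 18.9%.

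Promoters of protein-coding genes outside the RPG class lost their peaks almost without exception. The most enriched was that of ROX3, a Mediator subunit, with fold 11.6 and 21.7 in WT and no peak in either list labelled heat shock. TEF2, a translation elongation factor 1-alpha gene, had 9.74 and 19.1 in WT and no peak in the others. The same held for PDC1 (pyruvate decarboxylase, 6.74 and 8.47), TDH3 (glyceraldehyde-3-phosphate dehydrogenase, 6.95 and 6.44), CCW12 (a cell wall protein, 6.94 and 6.69), SWR1 (5.28 and 9.67), IMD2 (5.45 and 6.46), GAP1 (5.05 and 6.03) and YEL008W (6.24 and 11.3). SSF2 (4.13 and 6.67) had a peak of fold 2.21 in replicate 2 labelled heat shock alone. Of 18 genes of glycolysis and ethanol formation, 12 and 11 had a peak in the WT lists. In the lists labelled heat shock 1 and 0 did, the one being TPI1 at fold 1.42. Of 10 translation factor genes, 8 and 6 had a peak in WT and 0 in either list labelled heat shock. Since those lists held 5 and 9 peaks in this whole class, both counts are to be read against the loss over the class. The single kept region of this class, at RRT15, adjoins the rDNA array and had 2.02 and 2.83 against 1.41 and 1.45.

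Other genes that polymerase III transcribes kept weaker peaks or lost them. SNR52, a small nucleolar RNA gene with a polymerase III promoter, had fold 26.5 and 38.2 in WT against 3.07 and 4.86 in those labelled heat shock. SNR6, the U6 spliceosomal RNA gene, had 12.3 and 13.9 against 2.60 and 3.95. RPR1, which encodes the RNA of RNase P, had 17.4 and 25.03 in WT and no peak in either list labelled heat shock. SCR1, the signal recognition particle RNA gene, had 2.73 and 4.73 in the lists labelled heat shock and 9.65 in WT replicate 1. Its WT replicate 2 peak had its summit outside the window of the gene, so no WT mean is given. RDN5-6, a 5S rRNA gene outside the main rDNA array, had 5.14 and 8.53 against 2.39 and 3.56. The rDNA array was a single peak of 17453 and 17479 bp in WT, with 4.25 and 6.25 at its summit, and was covered by 6 regions labelled heat shock with fold 1.05 to 1.42. The WT values and the others therefore do not stem from the same summit there. Among 15 genes that encode TFIIIA, TFIIIB, TFIIIC, polymerase III subunits or Maf1, only TFC3 (TFIIIC) had a peak in WT (1.88 and 2.87). None had one in the lists labelled heat shock. All promoters outside the RPG class held 172 and 203 peaks in WT and 5 and 9 in those lists. Both counts are to be read against these numbers.

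The lists labelled heat shock held few places that WT lacked. Of 274 regions 6 overlapped no WT region, and their fold ran from 1.23 to 2.34. They lay at the noncoding RNA gene YNCB0008W (2.02 and 2.28), at the promoters of AAD3 (an aryl-alcohol dehydrogenase, 1.78 and 2.34) and ADH7 (an alcohol dehydrogenase, 1.63 and 1.83), and near YCL021W-A (1.66 and 1.23), YMR317W (1.62 and 1.41) and YJR027W (1.32 and 1.31). The YCL021W-A region overlapped a peak of WT replicate 1 and the YJR027W region one of WT replicate 2. No tRNA or RPG region was gained. Without replicate 1 labelled heat shock the number of such regions was 13.

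tRNA genes kept their peaks nearly throughout. Of the 275 nuclear tRNA genes, 268 had a summit within 250 bp in both WT lists, 251 in both lists labelled heat shock and 250 in all 4, and 3 had none in any list. The 17 WT tRNA regions that were lost had a lower WT fold, with medians of 5.19 and 7.45 against 8.38 and 11.5 at those kept. Of these, 12 had a peak in replicate 2 labelled heat shock alone. They were SUP3 (tRNA-Tyr), with 8.22 and 11.2 in WT and 2.07 in that list, YNCL0039W (tRNA-Ser, 8.10 and 11.8 against 2.33), YNCO0016W (tRNA-Lys, 7.42 and 11.1 against 1.98), YNCL0033C (tRNA-Ile, 6.75 and 10.01 against 2.43), YNCE0008C, YNCG0031W, YNCG0005W, YNCL0035C, YNCG0008W, YNCG0038C, YNCH0004C and YNCK0014W. The other 5 had no peak in either list, namely YNCG0040C (tRNA-Leu, 4.79 and 6.43 in WT), YNCD0023C (tRNA-Phe, 3.11 and 4.22), YNCH0002C (tRNA-Val, 2.34 and 3.30), YNCG0032W (tRNA-Arg, 2.22 and 2.68) and YNCG0030C (tRNA-Cys, 2.06 and 2.33). Without replicate 1 labelled heat shock 98.1% of WT tRNA regions were kept.

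Where a peak was present in all 4 lists, fold was lower in the lists labelled heat shock at most regions, by amounts that differed widely from gene to gene. The 262 regions with such peaks (247 of them at tRNA genes) were tested with limma on log2 fold, 2 lists against 2, with Benjamini-Hochberg adjustment over the 262. The median change was -0.72 on the log2 scale. At an adjusted p below 0.05 the fold was lower at 107 regions (40.8%) and higher at 1 (0.382%), and 129 passed unadjusted. Both values labelled heat shock lay below both WT values at 158 regions (60.3%), and both lay above at 6 (2.29%). By class, 97 of 247 tRNA regions fell, 1 rose and 149 did not pass, with a median of -0.70. Of the 6 RPG regions 5 fell (median -3.56), and 4 of 4 noncoding regions passed downward. One of these 4 is the rDNA array, where the summits compared differ, so only SNR52, SNR6 and RDN5-6 are read as falls. The replicates of one group differ in overall level here, the median tRNA fold being 8.17 and 11.3 in WT against 5.15 and 7.56 in those labelled heat shock. Relative to the median region of each list, 103 regions were lower (39.3%) and 101 higher (38.5%). On that scale 94 tRNA regions were lower and 100 higher, so the direction at a tRNA gene depends on whether the overall shift is kept. The 5 RPG regions, SNR52, SNR6 and RDN5-6 were lower on both scales. Without WT replicate 2 only 28 regions passed downward.

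**Figure D3:**
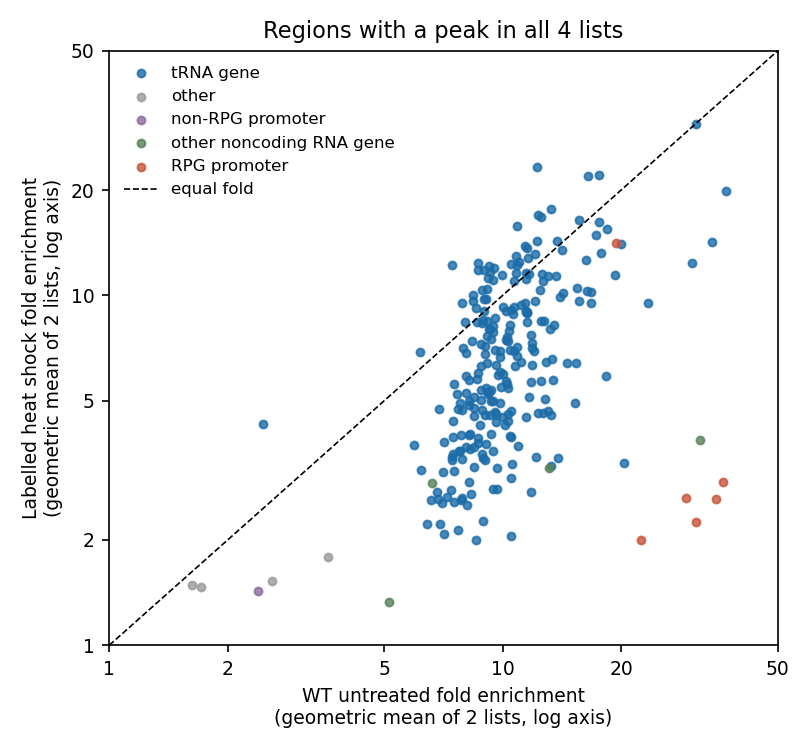
Fold enrichment in the lists labelled heat shock (y axis) against the WT lists (x axis), geometric mean of 2 lists each on log axes, for the 262 regions with a peak in all 4 lists, coloured by class. The dashed line marks equal fold, and 219 of the regions had a change below 0 while 5 RPG regions with WT fold above 20 sat between 2 and 3.

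The 5 largest falls were all at the RPG regions named above. RPL2A had a log2 change of -3.78 (SE 0.378, adjusted p = 2.75e-19 by limma), RPL23B of -3.74, RPL22B of -3.63, RPL27B of -3.49 and RPS11B of -3.47, all with the same SE. SNR52 came next (-3.04, adjusted p = 2.51e-13). SNR6 had a change of -2.03 (adjusted p = 2.57e-06) and RDN5-6 of -1.18 (adjusted p = 0.0070). RPL26A, whose region holds TRR4, had -0.47 and did not pass (adjusted p = 0.334). The SE was pooled over the 262 regions, so these p-values do not measure the spread between a region's own replicates. Relative to the median region of each list, the adjusted p at RPL2A was 6.53e-05 by limma. Each of these 5 falls at RPG regions passed under every alternative in which it could be fitted.

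Among tRNA regions, which the rule for named genes did not reach, the largest falls were picked after their values were seen. YNCE0012W (tRNA-Glu) went from 16.2 and 25.4 to 2.94 and 3.76, a log2 change of -2.61 (adjusted p = 5.42e-10). YNCH0005W (tRNA-Gln) went from 9.04 and 12.2 to 1.80 and 2.34 (-2.35). SUP61 (tRNA-Ser) went from 9.72 and 14.3 to 2.23 and 3.38 (-2.10). In all 3 the groups lay far apart. YNCO0031W (tRNA-Pro) had 7.22 and 10.1 against 1.51 and 2.64. YNCL0034W (tRNA-Leu) had 9.92 and 17.8 against 2.51 and 4.21.

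The 5 largest rises were all at tRNA genes, and 1 of them passed. SUF4 (tRNA-Gly) had fold 10.2 and 14.6 in WT against 18.8 and 28.7, a log2 change of 0.93 (SE 0.378, adjusted p = 0.0382 by limma). Its rank went from 134 among WT regions to 2 among those labelled heat shock. The rise did not pass in 6 of its 12 alternatives, among them 3 of the 4 that left out a list, and its adjusted p ran up to 0.263. YNCN0008C (tRNA-Asp) had 2.20 and 2.75 against 3.59 and 5.16 (0.81, adjusted p = 0.0758). YNCC0014W (tRNA-Thr) had 6.13 and 8.98 against 9.44 and 15.8 (0.72, adjusted p = 0.113). TGA1 (tRNA-Ala) had 9.59 and 12.4 against 14.2 and 17.5 (0.53). YNCC0010C (tRNA-Gln) had 7.44 and 10.1 against 10.2 and 15.02 (0.51). In these 5 both values labelled heat shock lay above both WT values, at YNCC0010C by as little as 10.2 against 10.1.

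The order of tRNA genes by fold was nearly the same in replicates and much less so between groups. Over the 247 tRNA regions Spearman's rho was 0.946 between the WT lists and 0.992 between the lists labelled heat shock. Between the groups it was 0.501 to 0.596 over the 4 pairs of lists. These points are regions of 4 libraries and are not independent. The first region labelled heat shock by mean fold, YNCJ0008W (tRNA-Arg, 24.2 and 39.3), was 13th in WT (27.0 and 35.7), and its level was alike in both groups. YNCE0027C had 18.4 and 26.7 (WT rank 54), YNCK0005C 19.97 and 24.2 (WT rank 71) and YNCH0015W 16.8 and 23.5 (WT rank 3). YNCI0011W had 14.8 and 21.1 (WT rank 110), YNCG0043C 14.01 and 20.6 (WT rank 132), YNCG0039W 13.4 and 20.9 (WT rank 129), YNCE0025C 12.9 and 21.0 (WT rank 79) and YNCG0016C 13.4 and 19.5 (WT rank 52). The second tRNA region of the WT order, SUF5 (tRNA-Gly), had 26.9 and 43.2 in WT against 12.0 and 16.8 in those labelled heat shock.

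The change differed by the amino acid the tRNA carries and by the length of its gene. Median log2 changes ran from -1.33 at tRNA-Pro (11 regions), -1.18 at tRNA-Trp (6), -1.11 at tRNA-Ile (13) and -1.06 at tRNA-Leu (18) to -0.18 at tRNA-Glu (16), -0.17 at tRNA-Gly (21) and -0.07 at tRNA-His (7). All 6 tRNA-Trp regions fell, as did 7 of 11 tRNA-Pro and 11 of 18 tRNA-Leu regions, while 0 of 7 tRNA-His regions did. In the background 97 of 247 tRNA regions fell. Genes that contain an intron had a median change of -1.17 (53 regions, 35 fell), and genes without one -0.54 (194 regions, 62 fell and 1 rose). All 53 regions with an intron had a change below 0, and 43 of the 194 without one had a change above 0. All tRNA-Trp and most tRNA-Pro regions were at genes with an intron, so amino acid and intron cannot be told apart there. All tRNA-Phe and tRNA-Tyr regions were also at genes with an intron, and their medians lay near that of genes without one. These were -0.61 at tRNA-Phe (9 regions, 3 fell) and -0.62 at tRNA-Tyr (7 regions, 3 fell). Without an intron the medians were -1.02 at tRNA-Ile (12 regions), -0.61 at tRNA-Leu (7) and -1.19 at the 1 tRNA-Pro region. By gene length the medians were -0.36 at 71 to 72 bp (87 regions), -0.57 at 73 bp (51), -0.70 at 74 to 82 bp (47) and -1.12 at 83 bp and over (62). Among genes without an intron, the 9 that were 83 bp or longer had a median of -0.82. Spearman's rho between gene length and change was -0.404 over the 247 regions. WT fold itself was lower in longer genes (rho -0.201), and the fold labelled heat shock more so (-0.431). Genes of one amino acid share much of their sequence, so they are not independent, and how reads from identical copies were placed is not given in the sources used here. Whether that bears on these values was not tested.

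**Figure D4:**
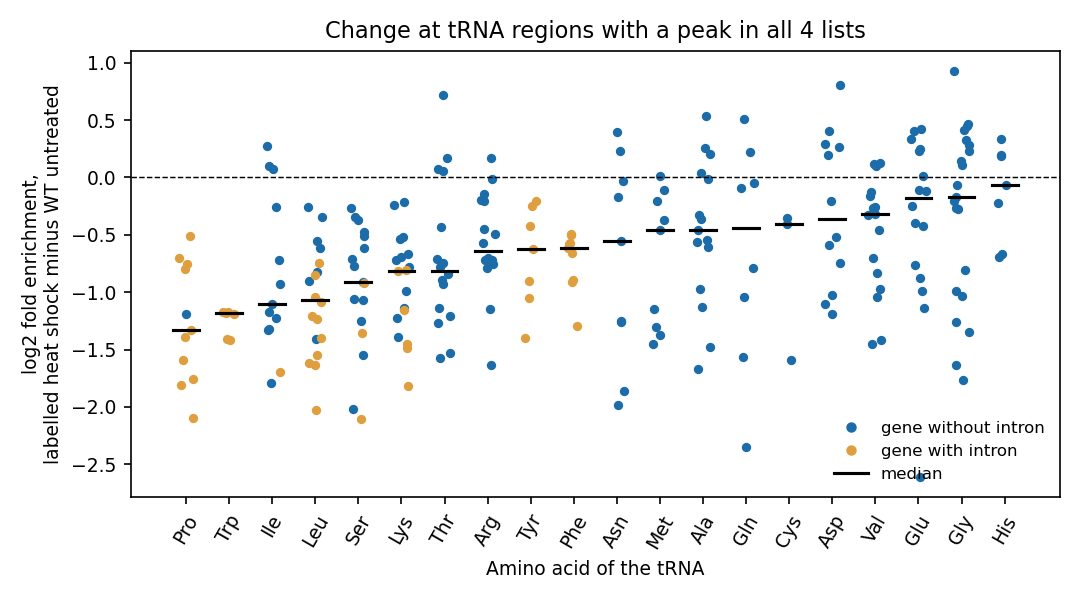
Log2 fold in the lists labelled heat shock minus WT (y axis, from 2 lists each) for each of the 247 tRNA regions, by amino acid (x axis, in order of the median). Points are regions, coloured by whether the gene has an intron, bars are medians, and the medians run from -1.33 at Pro to -0.07 at His.

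The summits moved within tRNA genes as well. In the lists labelled heat shock the median summit lay 16 bp upstream of the first base of the gene, with quartiles of -19 and -14 in replicate 1 and -18 and -14 in replicate 2. In WT the medians were -12 and -8, with quartiles of -15 and 5 and of -14 and 8. Summits at or beyond the gene start numbered 91 of 270 (33.7%) and 117 of 269 (43.5%) in WT and 10 of 253 (3.95%) and 13 of 265 (4.91%) in the lists labelled heat shock. WT thus had a second group of summits in the first 20 bases of the gene, 77 and 101 of them, where the lists labelled heat shock had 4 and 5. Of 250 genes with a summit in all 4 lists, 63 had it at or beyond the gene start in both WT lists. At 55 of these it lay upstream in both lists labelled heat shock, as it did at 238 of the 250 in all. In contrast, of 132 with an upstream summit in both WT lists, 1 had it at or beyond the gene start in both of the others. The lists labelled ubc9-6 had 36.7% and 25.2% at or beyond the gene start. Over all 262 regions the median distance between summits was 4 bp between the WT lists and 2 bp between the lists labelled heat shock. Between groups it was 5 to 10 bp (mean of 4 pairs 7.0 bp). The third quartiles were 14 bp, 5 bp and 19 to 23 bp, so the medians do not describe the genes whose summit moved upstream. These positions are given as counts and medians, and no test was run on them.

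**Figure D5:**
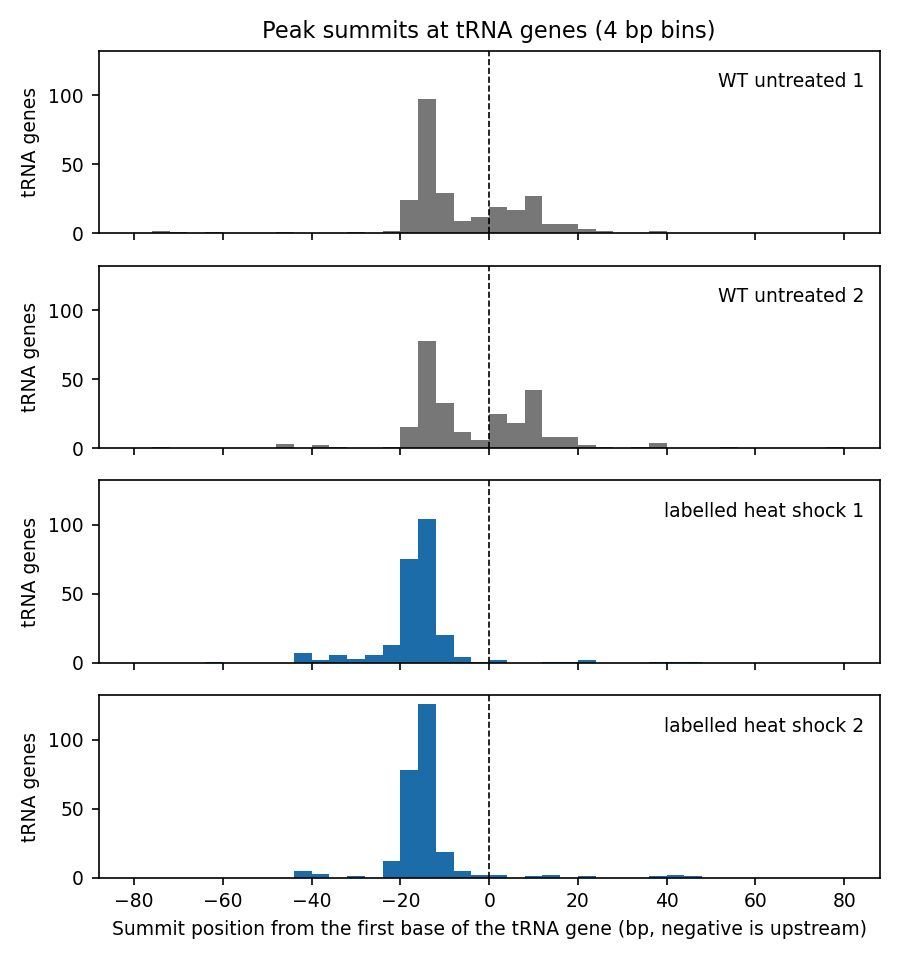
Number of tRNA genes (y axis) by the position of the peak summit from the first base of the gene (x axis, bp, 4 bp bins), one panel for each of the 4 lists, with the 2 to 7 summits of each list farther than 80 bp left out. The WT panels show a group of summits at or beyond the gene start (33.7% and 43.5%) that is nearly missing in the panels labelled heat shock (3.95% and 4.91%).

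Peaks were also narrower. The median width of nuclear peaks was 542 and 589 bp in WT against 458 and 490 bp in those labelled heat shock (exact permutation p = 0.33, the smallest possible). Over the 262 shared regions width fell by a median of 0.34 on the log2 scale. By limma 114 regions were narrower (43.5%) and 0 wider (0%), with 145 passing unadjusted in either direction. Without WT replicate 1 it was 74 narrower regions, and without WT replicate 2 it was 56. Relative to the median region of each list 53 were narrower (20.2%) and 19 wider (7.25%). All 6 RPG regions narrowed on both scales. At RPL27B the width was 701 and 819 bp in WT against 214 and 259 bp in those labelled heat shock (adjusted p = 0.000315), and at RPL2A it was 881 and 993 against 307 and 349 bp. Among tRNA regions, YNCE0005W (tRNA-Ser) went from 1933 and 1959 to 249 and 422 bp, and SUF4 went from 618 and 670 to 781 and 704 bp without passing (adjusted p = 0.179). Width depends on how far a peak rises over the threshold of the peak caller, so width and fold are not separate results.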

How the data were processed

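Chromatin immunoprecipitates of SUMO and matched inputs had been sequenced in pairs of reads. Per the submitters' processing notes the authors used Bowtie2 2.3.5 with sacCer3 and MACS2 2.1.1.20160309, which called narrow peaks in each library against its input, without pooling replicates. The deposited lists give each peak's interval, summit, fold enrichment (a linear ratio over the input background), a -log10 p-value, a -log10 q-value and a display score. How reads with several equal matches were placed, and the number of reads, are not given in the sources used here.

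Peaks of both replicates overlapping by 1 bp or more were merged. Summits were classed by the nearest tRNA gene (250 bp), RPG promoter (800 bp upstream to 100 bp downstream), other noncoding RNA gene (250 bp) or non-RPG promoter (500 bp upstream to 200 bp downstream), in that order. Values over lists were compared by exact permutation tests, and log2 fold and log2 width by limma 3.58.1 (R 4.3.3) over regions with a peak in all 4 lists. On simulated data with 100 regions lowered by 1.5 on the log2 scale, it recovered 92, with 1 false call. That noise was drawn separately for each region and list with a single SD of 0.375. It held no level shared by all regions of a list, so it gives no rate of false calls for these data. Python 3.11.15, numpy 2.4.6, pandas 2.3.3 and scipy 1.17.1 were used.

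Named regions were the 10 highest of each group, of RPGs and of other promoters, the gained regions, kept regions outside the tRNA class, lost tRNA regions, the 5 largest rises and falls, and listed genes with a peak. Members and lists were chosen with earlier results of these data known. The lists labelled ubc9-6 entered no test, and inputs only through the peak calling. Replicate numbers were not used to pair the libraries, except in the replicate block named below.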

Additional observations from a re-analysis of the deposited data

Results flagged for a closer look

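Replicate 1 labelled heat shock held 24 peaks on the mitochondrial genome, while the other 5 lists, the WT untreated ones included, held 0. Their fold ran from 1.07 to 1.47 with a median of 1.27, and their median width was 341 bp. These peaks lie outside the nuclear comparison. With 2 lists in each group no list could be set apart from its group by a test.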

How the results depend on the processing

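Of 144 alternative values for the main results, 108 stayed within the set limits (the spread between pairs of lists, 1.5 times for a count, or the same direction and side of the threshold where a test applied) and 36 moved. Of 113 for the 10 regions with the largest changes none reversed. The share of WT regions kept was 46.3% with fold of 2 or more, 64.5% with each list cut to its best 278 peaks and 45.8% where 1 of the 2 lists labelled heat shock sufficed. For tRNA regions it was 88.5% with 50% overlap, 98.1% with the best peaks and 98.1% with either list, and for RPG regions 18.9% with either list and 0.862% with 50% overlap. Gained regions numbered 34 with 50% overlap, 1 with fold of 2 or more, 2 with a -log10 q of 10 or more, 100 with the best peaks and 13 with either list. With 50% overlap a region also counted as gained where a WT region overlapped it by less. With the best peaks WT had 156 tRNA regions against 264 before the cut. Places whose WT peak was cut then also counted as gained, so neither number is one of new sites. The summit shift with the best peaks was 3.88 bp. The count of peaks has no such alternative, since it is then equal by construction. Regions of lower fold numbered 60 with limma's trend and robust options and 456 with the lowest fold of the list put in for missing values (661 tested). A value put in is low by construction, so the 456 include falls fixed in advance. Among RPG regions, 116 of 122 had such a value. Regions of higher fold numbered 0 in these 2 settings, 0 with recovered fragments and 101 after centring, and after centring 53 regions were narrower and 19 wider. With summits within 250 bp, chosen after seeing the data, 105 were lower and 1 higher. The deviations of same-numbered libraries had a correlation of 0.068 over regions. A level common to all regions of a list does not enter that value, and the median tRNA fold was higher in replicate 2 in both groups. Whether same-numbered libraries share a batch is therefore not settled by it. The replicate block gave 196 lower and 25 higher regions. Leaving out one list gave 31.2% to 45.4% of regions kept (RPG 4.03% to 18.9%, tRNA 93.6% to 98.1%), 5 to 13 gained, 5 to 22 RPG and 248 to 260 tRNA regions labelled heat shock, 28 to 139 lower and 0 to 1 higher in fold, 56 to 160 narrower and 0 wider, and a summit shift of 5.5 to 8.5 bp, with a lone list assumed to vary like the others. It gave differences of -543.5 to -415.5 peaks, of -115 to -68.0 bp in width and of -4.96 to -1.82 in tRNA fold.

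With 2 lists a side, peaks just under the caller's limit cannot be told from absent ones, and fold near 1 could not be followed.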
